A study of Homo sapiens with 6 samples.

Results

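The BCR-ABL1 amplified segments of K562 cells are 2 stretches of the genome, chr22:16800000-23290000 and chr9:130700000-131300000 on GRCh38. Members were all sites of the authors' count table whose midpoint lay in either stretch. The rule used position alone and no measured value. It took 1265 of 181135 sites (0.698%), of which 1143 were on chromosome 22 and 122 on chromosome 9. By RefSeq annotation, 90 protein-coding genes overlapped the chromosome 22 segment and 10 overlapped the chromosome 9 segment.

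The assay was ATAC-seq, in which a transposase cuts open DNA and the reads over a site count its cuts. All libraries came from wild-type (WT) K562 cells, an established line from a human chronic myeloid leukaemia. The cells received 25 nM PMA, an activator of protein kinase C that drives the line towards a megakaryocyte-like state, and were collected after 6 or 72 h, or before PMA (0 h). Each time point had 2 libraries, prepared by the Omni-ATAC method. The labels do not say whether the libraries of a time point came from separate cultures, so p-values measure the spread between these libraries, which may be technical. No untreated 72 h library was analysed here, so time in culture and PMA cannot be told apart.

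BCR-ABL1 is the fusion gene of the Philadelphia chromosome. A translocation between chromosomes 9 and 22 joins the 5′ part of BCR to the 3′ part of ABL1, and the product is a tyrosine kinase that is always active and signals through RAS, PI3-kinase and STAT5. In K562 the fusion is carried on amplified copies, together with stretches of chromosomes 22 and 9 that lie beside it. A site present in more copies can give more reads at the same accessibility per copy, and counts alone do not separate these quantities.

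The starts of the genes joined in K562 fusions are shown first, since BCR and ABL1 are the genes the segments are named for. NUP214 codes for a nuclear pore protein and XKR3 for a membrane protein, and a NUP214-XKR3 fusion has also been described in this line. Each sequence runs from 250 bases before to 50 bases after a RefSeq start (GRCh38.p14), 5′ to 3′ on the gene's strand. Capitals mark matches to any of 4 motifs, searched on both strands. The GC box, bound by SP1-family factors, was read as GGGCGG. The core that ETS factors bind was read as CCGGAA. The AP-1 element was read as TGANTCA, and the GATA element as AGATAA. Matches to different motifs could overlap.
BCR, chr22:23180259-23180558, plus strand: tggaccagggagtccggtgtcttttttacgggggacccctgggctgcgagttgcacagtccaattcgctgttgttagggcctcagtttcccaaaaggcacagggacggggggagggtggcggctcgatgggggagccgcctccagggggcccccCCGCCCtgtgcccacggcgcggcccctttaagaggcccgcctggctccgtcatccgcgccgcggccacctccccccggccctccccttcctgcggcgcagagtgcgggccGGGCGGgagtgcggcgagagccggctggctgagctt
ABL1, chr9:130835004-130835303, plus strand: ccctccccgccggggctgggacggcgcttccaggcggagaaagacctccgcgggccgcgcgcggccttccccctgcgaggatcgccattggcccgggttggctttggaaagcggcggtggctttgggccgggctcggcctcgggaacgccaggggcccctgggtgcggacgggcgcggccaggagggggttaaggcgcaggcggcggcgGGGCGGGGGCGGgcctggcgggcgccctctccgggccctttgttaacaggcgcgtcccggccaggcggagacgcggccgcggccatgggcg
NUP214, chr9:131125336-131125635, plus strand: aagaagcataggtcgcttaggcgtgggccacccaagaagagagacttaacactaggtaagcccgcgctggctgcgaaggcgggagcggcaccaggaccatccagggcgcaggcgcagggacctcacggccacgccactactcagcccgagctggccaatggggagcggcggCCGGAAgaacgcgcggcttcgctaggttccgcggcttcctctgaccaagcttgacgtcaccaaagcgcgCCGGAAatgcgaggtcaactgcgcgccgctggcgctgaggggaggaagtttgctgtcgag
XKR3, chr22:16825362-16825661, minus strand: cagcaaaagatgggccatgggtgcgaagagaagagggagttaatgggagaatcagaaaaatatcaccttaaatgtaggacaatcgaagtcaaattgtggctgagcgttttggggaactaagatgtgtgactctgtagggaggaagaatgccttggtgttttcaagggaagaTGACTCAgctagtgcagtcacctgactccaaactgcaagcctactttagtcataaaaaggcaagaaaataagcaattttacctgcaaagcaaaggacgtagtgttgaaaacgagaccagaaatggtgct
The BCR and ABL1 starts each held 2 GC boxes and no other match, with 71.7% and 78.3% G or C. NUP214 held 2 ETS matches (65.3% G or C), and XKR3 held 1 AP-1 match and only 43.3% G or C, against a median of 58.7% over all promoters. The ABL1 entry is an inner start, and the first start of the annotated gene lies far upstream, at the gene's left end. RefSeq gave 151 promoters of 118 symbols in the segments. GC boxes were in 52.3% of these and in 45.0% of all 35116 promoters, ETS matches in 21.2% and 17.2%, AP-1 matches in 3.97% and 7.71%, and GATA matches in 6.62% and 10.3%. A match describes letters in the window and not a bound factor.

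Library totals ran from 12258890 to 35548737 counts in sites, and the fit across all sites had a biological coefficient of variation of 0.166. Of the 4 erythroid and megakaryocytic marker genes with a known start, 3 had a site there. TAL1, an erythroid and megakaryocytic factor, was at 58.8 and 54.6 CPM (counts per 1000000 counts in sites, after TMM scaling of library size) at 0 h with a peak in all 6 libraries, GFI1B at 32.0 and 23.0 CPM, and GATA1 at 13.5 and 12.8 CPM. PAX5, CD14 and ALB, markers of other cell types, had no site at their start, nor did the erythroid factor KLF1.

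The chromosome 22 segment took more counts than its size in every library. It held 0.631% of the sites and 0.668% of the summed site width, and it drew 1.62% to 1.70% of the counts. The chromosome 9 segment held 0.0674% of the sites and 0.0700% of the width and drew 0.161% to 0.195% of the counts. The chromosome 22 share of counts varied little between 0, 6 and 72 h. The chromosome 9 share was 0.175% and 0.174% at 0 h and 0.178% and 0.161% at 6 h. At 72 h it was 0.195% and 0.192%, above all other libraries.

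Density was taken as CPM per kb of site width, here without TMM, and each segment was set against the rest of its own chromosome within a library. The median site of the chromosome 22 segment was at 7.24 and 6.70 before PMA, 8.17 and 7.41 after 6 h, and 10.1 and 9.23 after 72 h. The 2846 other sites of chromosome 22 had medians of 2.69 and 2.71, then 3.43 and 3.47, then 4.75 and 4.70. On this scale, without TMM, both groups of sites were thus denser at 72 h than at 0 h in both libraries. For the segment this direction depended on the scaling. Its tested sites had a median log2 fold change at 72 h of 0.251 with total counts and -0.247 with TMM. The segment stayed above the rest throughout. The ratio of medians was 2.69 and 2.47 before PMA (mean 2.58 ± 0.153, SD, n = 2), 2.38 and 2.13 after 6 h, and 2.13 and 1.96 after 72 h (2.05 ± 0.115). Over all 6 libraries it was 2.29 ± 0.267.

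On chromosome 9 the ratio was higher at 0 h and dropped further. The median member was at 12.1 and 11.4 before PMA, 12 and 9.75 after 6 h, and 12.1 and 10.1 after 72 h. The segment's own median thus changed little on this scale, without TMM, but TMM gave a clearer fall. Site by site, the members' log2 changes from 0 to 72 h had their median at -0.788 under TMM and -0.287 under total counts. The 6838 other sites of chromosome 9 went from 2.59 and 2.56 before PMA to 3.41 and 3.27 after 6 h and 4.92 and 4.76 after 72 h. The ratio was 4.56 ± 0.152 (SD, n = 2) at 0 h, 3.25 ± 0.379 after 6 h and 2.29 ± 0.238 after 72 h. Neither segment's ratios at 0 h overlapped those at 72 h. With 2 libraries against 2, an exact two-sided permutation test cannot give a p below 0.333, so it cannot pass the usual threshold, and no other test of this drop was run.

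The drop over time was seen in the median over all sites set against the rest of the chromosome, and other measures gave other courses. Summed counts per summed width gave mean ratios for chromosome 22 of 3.25 before PMA, 3.14 after 6 h and 3.21 after 72 h, and for chromosome 9 of 2.70, 2.65 and 2.97. Against flanks of the segment's own length on either side, the mean ratio of medians for chromosome 22 was 2.40, 2.71 and 2.28 at these times. The stretch before the segment alone gave 1.91, 2.83 and 2.38. For chromosome 9 the flanks gave 3.96, 2.0 and 2.05. Of these references, only the stretch before the segment gave a higher chromosome 22 ratio at 72 h than at 0 h. The course at 6 h also differed between references. On chromosome 9 the ratio was lower at 72 h than at 0 h against the flanks as well.

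Classes of sites were set by the deposited peaks of these same 6 libraries, so a class depends partly on how its sites changed, and the split is a description. Among sites without a deposited peak, the chromosome 22 ratio (124 members, 283 others) went from 2.87 and 2.85 before PMA to 1.57 and 1.40 after 72 h. The same class on chromosome 9 (15 members, 649 others) went from 5.45 and 6.23 to 2.01 and 1.66. Among sites with a peak in all 6 libraries the order was the other way on chromosome 22, from 2.27 and 2.30 before PMA to 3.0 and 2.92 after 72 h (288 members, 607 others), and on chromosome 9 the ratios were 2.86 and 2.95 before PMA and 2.94 and 2.69 after 72 h (27 members, 1365 others).

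**Figure D1:**
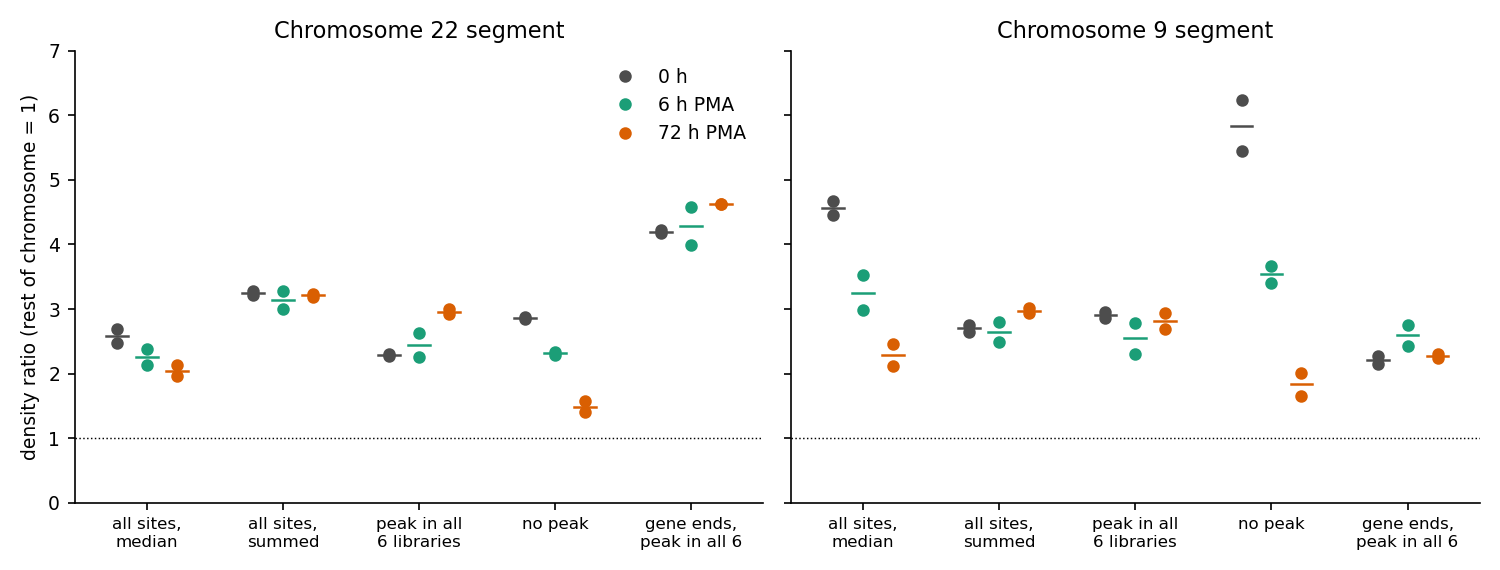
Density of each segment divided by that of the rest of its chromosome, for all sites and for classes of sites (y axis; 1 is the level of the rest). Each point is 1 library and each short line the mean of the 2 libraries of a time point; the median over all sites and the sites without a peak drop from 0 to 72 h, while summed counts stay between 2.49 and 3.28.

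Sites at the ends of protein-coding genes with a peak in all 6 libraries were also denser in the segments. On chromosome 22 the 66 members of this class were at 3.99 to 4.63 times the median of 207 such sites elsewhere on the chromosome. On chromosome 9 only 5 members fell in the class, at 2.15 to 2.76 times the median of 433 others. The class was chosen after the data were seen.

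The chromosome 22 segment was not raised along its whole length. In windows of 500 kb, the first 4 windows (16.8 to 18.8 Mb), which hold XKR3, IL17RA, CECR2, BID and USP18, had mean ratios over the 6 libraries of 0.745, 1.1, 1.07 and 1.42. The 3 windows before the segment were at 0.951, 0.821 and 1.12. The windows from 16.8 to 18.3 Mb lay close to these or below them. The window from 18.3 Mb lay above them, at 1.21 to 1.72 in single libraries. From 18.8 Mb the ratio climbed, through 1.61 and 2.40 to 3.06 in the window that starts at 19.8 Mb and holds DGCR8. The highest window started at 21.3 Mb and holds HIC2 and UBE2L3, at 4.01. The last window, from 22.8 Mb to the segment's end inside BCR, was at 3.61, and the next 500 kb, which begin in the 3′ part of BCR, were at 1.07. The label of an amplified segment is thus not borne out by count density from 16.8 to 18.3 Mb.

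The chromosome 9 segment was densest in its middle and had soft edges. In windows of 100 kb, the mean ratio was 1.83 over the 5′ part of ABL1 and 2.69 over its 3′ part. It was 4.30 and 4.10 in the windows from 130.9 to 131.1 Mb and 3.33 and 3.05 in the last windows, where NUP214 lies. Outside, the window just before was at 2.20 and the window just after at 1.70. These windows hold few sites, from 8 to 26. The window over the 3′ part of ABL1 changed most with time, from 4.74 before PMA to 2.32 after 6 h and 1.02 after 72 h.

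**Figure D2:**
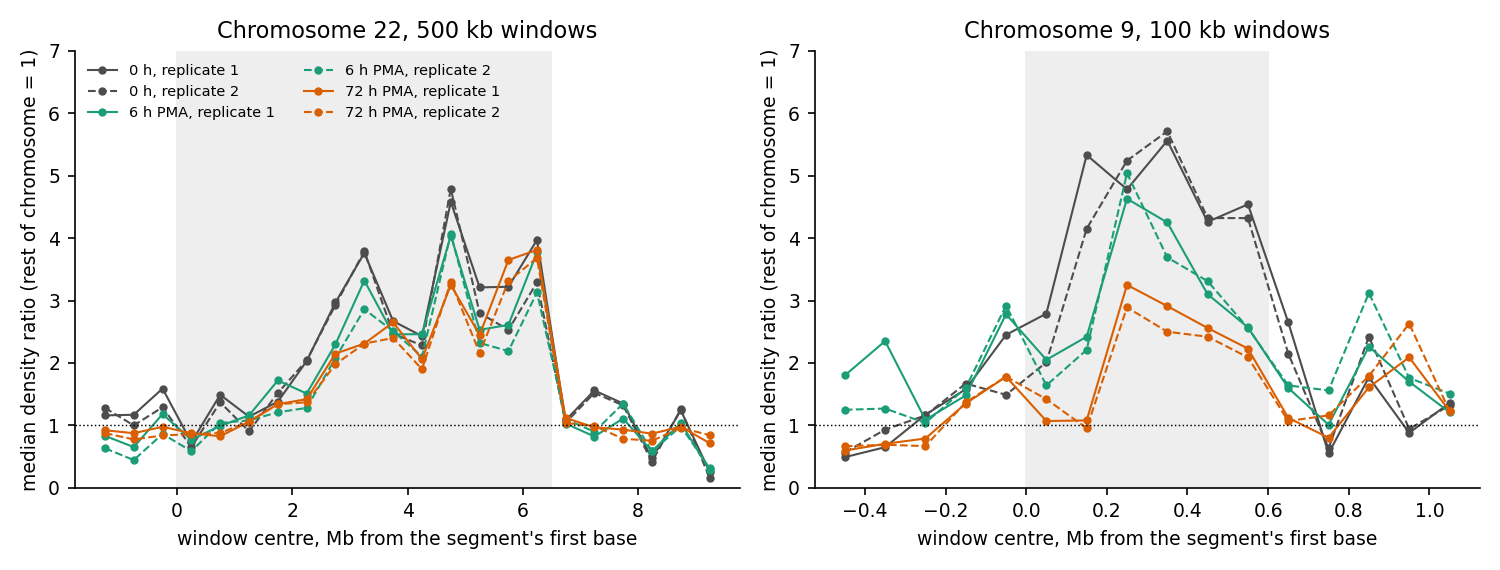
Median site density of windows along each chromosome divided by the median of the rest of that chromosome (y axis), against the distance of the window centre from the segment's first base (x axis, Mb). Each line is 1 library and grey marks the segment. On chromosome 22 the segment's windows up to 18.3 Mb have means near 1 or below it, and the next has 1.42. The mean ratio drops from 3.61 to 1.07 across the segment's far end.

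Against the whole genome, 3421 windows of 500 kb held 20 or more sites, and 15 of them lay mostly in a segment. Of these 15, 11 were among the 171 densest windows (the highest 5%), the best at rank 2 with 4.33 times the genome's median density and the lowest at rank 2064 with 0.881 times. At the edges of the rule the sites just inside and just outside were as follows. On chromosome 22 the last site before the segment and the first member were both within XKR3, with mean densities of 3.09 and 3.77. The last member and the first site beyond were both within BCR, at 21.0 and 15.8. The order of this BCR pair came from 72 h alone. The last member was at 4.35 and 4.40 CPM before PMA, 5.12 and 4.56 after 6 h, and 25.9 and 38.1 after 72 h. The first site beyond stayed between 11.9 and 14.7 CPM in all 6 libraries, so it was the higher of the pair at 0 and 6 h. On chromosome 9 the corresponding pairs were within EXOSC2, at 22.6 and 5.31, and within PLPP7, at 2.66 and 6.70.

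The authors called peaks in each library. The chromosome 22 segment held 489 and 520 peaks at 0 h, 487 and 678 after 6 h, and 845 and 868 after 72 h. These were 0.790% and 0.752% of all peaks before PMA, 0.745% and 0.729% after 6 h, and 0.608% and 0.610% after 72 h, against 0.631% of all sites. The share of peaks was thus above that of sites at 0 and 6 h and below it at 72 h. The downstream stretch of the same length, with 573 sites against 1143, held 193 and 234 peaks, then 172 and 296, then 424 and 452. The chromosome 9 segment held 51 and 59, 48 and 78, and 86 and 91 peaks. Its shares were 0.0824% and 0.0853%, 0.0735% and 0.0839%, and 0.0619% and 0.0639%, against 0.0674% of sites. The authors' fold enrichment per peak was lower in the segments than in the rest of the same chromosome in every library: in the first 0 h library the medians were 5.18 against 7.16 on chromosome 22 and 4.12 against 6.82 on chromosome 9.

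Changes over time were tested at 1258 members, since 7 fell under the filter on low counts. At 6 h against 0 h, 487 members were called changed (edgeR's quasi-likelihood test, Benjamini-Hochberg adjusted p under 0.05), 227 higher (18.0%) and 260 lower (20.7%). Over all 177759 tested sites 40.1% were called, 23.4% higher and 16.8% lower. At 72 h against 0 h, 865 members were called, 349 higher (27.7%) and 516 lower (41.0%), against 67.4% of all tested sites, 38.2% higher and 29.2% lower. Both comparisons share the 0 h libraries. In these bulk libraries a change within each cell and a change in the share of cells cannot be told apart.

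At 72 h against 6 h, 606 members were called, 229 higher and 377 lower (30.0%), against 42.9% of all tested sites, 22.1% higher and 20.9% lower. The shares called in either direction were near the background at 6 h and at 72 h against 0 h, and the shares called lower were above it in each comparison. Without 72 h replicate 2, the count at 72 h against 6 h was 338.

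The median log2 fold change of the members was -0.18 after 6 h and -0.30 after 72 h against 0 h, while that of all tested sites was 0.05 and 0.29. The difference was thus -0.23 after 6 h and -0.59 after 72 h with TMM, and -0.13 and -0.10 with loess offsets (described below). It was larger on chromosome 9, whose members had medians of -0.31 and -0.79, than on chromosome 22, at -0.16 and -0.25. The split by direction depended on the scaling of the libraries. Of the members called, 46.6%, 40.3% and 37.8% were higher in the 3 comparisons with TMM, 58.9%, 58.9% and 67.1% with total counts, 36.8%, 35.2% and 35.4% with RLE size factors, and 44.4%, 48.8% and 61.4% with loess offsets, which remove any trend of change with signal level. Of all tested sites called, 58.2%, 56.7% and 51.4% were higher with TMM, and 67.3%, 71.1% and 73.6% with total counts. With RLE size factors these shares were 48.9%, 51.6% and 49.3%, and with loess offsets 49.9%, 49.4% and 53.3%. The members' share was below that of all tested sites in each case but loess offsets at 72 h against 6 h. The median over all tested sites at 72 h was 0.79 with total counts, 0.11 with RLE and 0.01 with loess offsets, against 0.29 with TMM, and directions below are relative to that TMM value unless another scaling is named.

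Members were brighter than other sites, with a median of 4.84 CPM against 2.05. In the classes by peak calls, which depend partly on the change itself, the values were as follows. The 315 members whose site had a peak in each of the 6 libraries had medians of -0.33 after 6 h and -0.75 after 72 h, and the 35436 others of that class -0.33 and -0.95. The 807 members with a peak in 1 to 5 libraries had medians of 0.01 and 0.16, and the others 0.33 and 0.93. The 136 members without a peak had medians of -0.46 and -0.87, and the others -0.16 and -0.06. In the latter 2 classes members lay below the others at both times, and in the first they did not. The part of signal level and copy number in these differences was not tested.

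The authors' deposited table gives a class to each site. It called 1075 members static (85.0%, against 79.2% of all sites), 100 upLate (7.91% against 11.7%), 49 downEarly (3.87% against 4.94%), 32 upEarly (2.53% against 3.0%) and 9 downLate (0.711% against 1.1%).

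BCR codes for a protein with GTPase-activating and kinase domains, and its 5′ part supplies the promoter of the fusion. The gene (chr22:23180509-23318037, plus strand) had 42 sites within it or within 5 kb of its ends, of which 35 were members and 7 lay beyond the segment's end. The median density of the 35 members was 16.5 and 10.9 before PMA, 15.8 and 15.5 after 6 h, and 21.9 and 19.9 after 72 h. The 7 sites beyond the end were at 3.68 and 1.56, then 4.63 and 5.24, then 12.9 and 13.3. The members were above the sites beyond the end in every library, and the sites beyond the end came closest at 72 h.

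The site over the BCR start (chr22:23179195-23181148) had the highest counts of the gene at 0 h. It was at 199.7 and 195 CPM before PMA, 182 and 158 after 6 h, and 94.8 and 95.6 after 72 h. The levels at 72 h lay below all others. On the log2 scale the change was -0.22 ± 0.12 (SE) at 6 h (edgeR adjusted p = 0.149) and -1.05 ± 0.12 after 72 h (adjusted p = 1.1e-07). With RLE size factors the value at 6 h was -0.37 (adjusted p = 0.018), and with loess offsets the values were 0.48 and 1.02. Just upstream, a site at chr22:23177122-23177667 went from 65.8 and 40.8 CPM to 14.3 and 9.65 after 6 h and 10.9 and 10.2 after 72 h, with log2 fold changes of -2.18 and -2.33 (edgeR adjusted p = 6.4e-08 and 6.1e-09).

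Of the 35 BCR members, 9 were higher and 11 lower at 6 h, and 11 were higher and 15 lower at 72 h. The background over all tested sites was 23.4% higher and 16.8% lower at 6 h, and 38.2% and 29.2% at 72 h. The largest rise already in place at 6 h was at chr22:23279641-23280449. This site was at 7.21 and 6.98 CPM before PMA, 47.2 and 38.6 after 6 h, and 43.2 and 50.3 after 72 h, a log2 change of 2.59 ± 0.18 (SE) at 6 h and 2.72 ± 0.17 after 72 h (edgeR adjusted p = 3.8e-10 and 1.4e-10). It had reached its later level by 6 h, in both libraries.

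A site at chr22:23235358-23236408 had the same course, from 5.52 and 5.07 CPM to 24.2 and 27.3 after 6 h and 22.3 and 24.4 after 72 h (log2 fold changes 2.29 and 2.14). The last member, at chr22:23285631-23286379, moved only later. It was at 4.35 and 4.40 CPM before PMA, 5.12 and 4.56 after 6 h, and 25.9 and 38.1 after 72 h, with log2 fold changes of 0.13 (edgeR adjusted p = 0.7) and 2.87 (9.7e-10). A brighter site, at chr22:23251433-23252300, went from 51.9 and 49.6 to 97.0 and 109.8 after 6 h and 80.6 and 96.3 after 72 h (1.03 and 0.80).

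Another BCR member dipped at 6 h. The site at chr22:23223523-23224456 was at 110.2 and 76.3 CPM before PMA, 40.9 and 35.6 after 6 h, and 77.2 and 78.7 after 72 h. It was lower at 6 h (log2 fold change -1.29, edgeR adjusted p = 1.1e-06) and higher at 72 h than at 6 h (1.03, adjusted p = 2.3e-05). At 72 h against 0 h its value was -0.26 (adjusted p = 0.141), but -0.50 (0.0069) without 0 h replicate 2, -0.44 (0.016) with RLE size factors and 1.34 with loess offsets. Next to it, chr22:23219670-23221204 stayed between 77.1 and 119.8 CPM and was called higher at 72 h (0.42, adjusted p = 0.0081). The call was lost with RLE size factors (0.24), with DESeq2 (0.24), and without 0 h replicate 2 (0.30) or 72 h replicate 2 (0.31).

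Sites that fell at both times included chr22:23197742-23198416, from 23.0 and 20.3 CPM to 9.55 and 6.80 after 6 h and 8.62 and 7.22 after 72 h (-1.43 and -1.45), and the neighbours chr22:23248388-23248623 (-2.06 and -2.63) and chr22:23248701-23248927 (-1.78 and -2.39), which stayed under 12 CPM in all libraries. Beyond the segment's end, 4 of 7 sites were higher at 72 h, against 38.2% of all tested sites. The largest rise of these was at chr22:23305069-23305731. It went from 0.585 and 0.335 CPM before PMA, only 9 and 7 counts, to 7.87 and 7.62 after 72 h (log2 fold change 4.11). The counts of BCR members depended on 6 h replicate 2, without which 5 were higher and 8 lower at 6 h. With total counts 15 were higher and 12 lower at 72 h, against 48.0% and 19.5% of all tested sites. With loess offsets the numbers were 15 and 11, against 30.2% and 31.0%.

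ABL1 codes for the tyrosine kinase whose activity the fusion unlocks. The gene (chr9:130713043-130887675, plus strand) had 30 sites within it or within 5 kb of its ends, all of them members, and 21 had a mean of 2 CPM or more. At 6 h, 1 was higher and 8 lower, and at 72 h, 5 were higher and 13 lower. All tested sites were 23.4% higher and 16.8% lower at 6 h, and 38.2% and 29.2% at 72 h, as given above. Without 6 h replicate 2, 1 was higher and 5 lower at 6 h. Without 0 h replicate 1, 3 were higher at 6 h, and without 0 h replicate 2, 3 were higher at 72 h. With total counts 9 were higher and 11 lower at 72 h, against 48.0% and 19.5% of all tested sites.

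The site at the first ABL1 start (chr9:130712350-130713371) was at 84.4 and 92.8 CPM before PMA, 69.8 and 66.2 after 6 h, and 26.7 and 30.9 after 72 h. Each later time lay below the earlier one. On the log2 scale the change was -0.38 ± 0.14 (SE) at 6 h (edgeR adjusted p = 0.029) and -1.62 ± 0.14 after 72 h (adjusted p = 3.3e-09). With total counts the value at 6 h was -0.25 and not called (edgeR adjusted p = 0.13). The call at 6 h was lost without 0 h replicate 2 (adjusted p = 0.14), 6 h replicate 1 (0.078) or 6 h replicate 2 (0.11), and with loess offsets the values were 0.06 and -0.11 (adjusted p = 0.7 and 0.43). The inner start printed above lies in the site chr9:130834700-130835910, which was at 19.2 and 16.8 CPM before PMA, 17.5 and 10.5 after 6 h, and 5.82 and 4.20 after 72 h (log2 fold changes -0.39 and -1.84).

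Per length, the faintest sites of the gene lay past its first start. The pair at chr9:130730078-130730285 and chr9:130730352-130730669 stayed between 0.239 and 1.55 CPM, with mean densities of 1.91 and 3.37. Further on, neighbouring sites rose. The site at chr9:130740344-130741251 went from 8.06 and 4.69 CPM before PMA to 7.42 and 8.95 after 6 h and 28.7 and 36 after 72 h, with log2 fold changes of 0.40 (edgeR adjusted p = 0.187) and 2.36 (1.4e-08). Without 0 h replicate 1 its value at 6 h was 0.76 (adjusted p = 0.018). Its neighbour at chr9:130741809-130742603 rose at both times, from 4.03 and 3.97 to 12.2 and 13.5 and then 19.8 and 23.1 CPM (1.69 and 2.42).

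The deepest fall of any named member at 72 h was in ABL1. The site at chr9:130824780-130825584 was at 29.8 and 30.2 CPM before PMA, 10.8 and 7.82 after 6 h, and 2.15 and 2.50 after 72 h, a log2 change of -1.71 ± 0.20 (SE) and -3.69 ± 0.22 (edgeR adjusted p = 7.3e-07 and 7.3e-11). Falls at both times also marked chr9:130843889-130844643 (-1.54 and -2.58) and chr9:130785938-130786574 (-2.07 and -2.12).

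One ABL1 site dipped and returned, as in BCR. The site at chr9:130853917-130854622 went from 22.9 and 19.6 CPM to 6.82 and 4.24 after 6 h and 18.9 and 13.3 after 72 h (-1.99 after 6 h, and 1.60 after 72 h against 6 h, edgeR adjusted p = 8.2e-07 and 1.6e-05). Its value at 72 h against 0 h was -0.39 (adjusted p = 0.107), but -0.67 (0.047) without 72 h replicate 1 and -0.58 (0.022) with RLE size factors. The site at chr9:130860657-130861408, one of the brightest of the gene after the start, was between 38.2 and 49.7 CPM in all 6 libraries. Near the 3′ end, chr9:130870590-130871605 went from 6.95 and 4.30 CPM before PMA to 16.5 and 21.2 after 72 h (1.76, adjusted p = 1.1e-06).

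**Figure D3:**
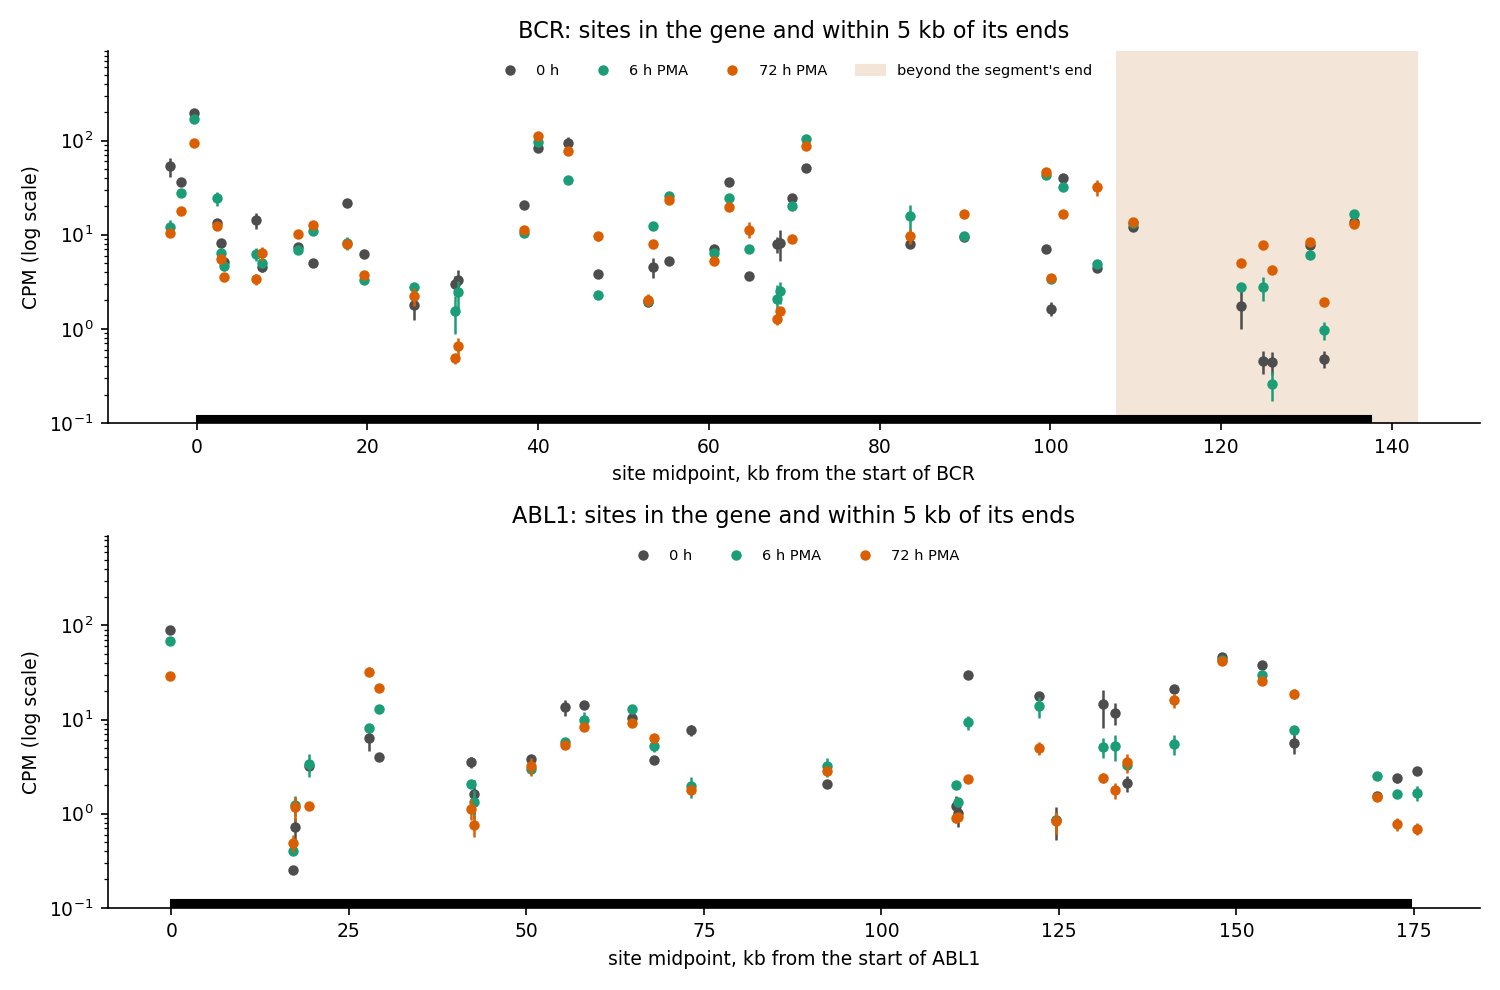
CPM (TMM, log axis) at the sites of BCR and ABL1 against the distance of the site's midpoint from the gene's start (kb). Points are the means of 2 libraries, vertical lines join those libraries, black bars mark the genes, and the tinted area holds the 7 BCR sites beyond the segment's end, where levels at 0 h are mostly lower than in the members.

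The starts of other genes of the segments were read from a list of 46 genes grouped by role. RefSeq promoters gave a start for 33 of them, and 29 of these had a tested site. The 13 genes without a known start are not described here. HIRA and MRPL40 share a site and are counted as separate genes, and AIFM3, SERPIND1, VPREB1 and FAM78A had no site at their start. At 6 h, 22 of the 29 were lower and 1 higher, and at 72 h, 27 were lower and 1 higher. The median log2 fold changes were -0.39 and -1.29. Over all 11946 tested sites at known starts of protein-coding genes, 42.1% were lower and 6.47% higher at 6 h and 78.6% and 6.90% at 72 h, with medians of -0.39 and -1.26. The 29 starts therefore had medians close to those of gene starts in general.

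With loess offsets the picture was the other way. There 11 of the 29 were higher and 2 lower at 6 h, and 21 were higher and 2 lower at 72 h, with medians of 0.19 and 0.67, while all gene starts had medians of -0.21 and -0.36. Lower calls outnumbered higher ones in each of the other fits. At 6 h, 10 were lower with total counts, and 13, 14 and 10 without 0 h replicate 2, 6 h replicate 1 and 6 h replicate 2.

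Among the fusion partners, NUP214 had the brightest start of the 4, at 282 and 277 CPM before PMA, 251 and 205 after 6 h, and 118 and 119 after 72 h. Its log2 change was -0.30 ± 0.12 (SE) at 6 h (edgeR adjusted p = 0.047) and -1.24 ± 0.12 after 72 h (adjusted p = 1.2e-08). With total counts the value at 6 h was -0.16 and not called (edgeR adjusted p = 0.26). The call at 6 h was lost without 0 h replicate 1 or 2 or without 6 h replicate 2 (adjusted p = 0.05, 0.091 and 0.31), and loess offsets gave 0.47 and 0.98. XKR3 was at 0.341 to 1.56 CPM in all 6 libraries with no peak in any, and its call at 6 h (-1.52 ± 0.59 SE, edgeR adjusted p = 0.045) was lost in 5 of 6 fits that left out 1 library. Per length, the mean densities at the starts were 172 for NUP214, 76.3 for BCR, 57.4 for the first start of ABL1 and 2.97 for XKR3.

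Of 4 signalling genes with a known start, 3 were lower at 6 h and 4 after 72 h (all gene starts 42.1% and 78.6%). CRKL, an adaptor that BCR-ABL1 phosphorylates, was at 300.5 and 312 CPM before PMA, 247 and 239.5 after 6 h, and 104 and 109 after 72 h. All 4 later values lay below both values at 0 h. On the log2 scale the change was -0.33 after 6 h (edgeR adjusted p = 0.017) and -1.53 ± 0.11 (SE) at 72 h (adjusted p = 4.8e-10); the former was lost without 0 h replicate 2, 6 h replicate 1 or 6 h replicate 2 (adjusted p = 0.076, 0.074 and 0.072), and loess offsets gave 0.44 and 0.71. With total counts the CRKL value at 6 h was -0.20 and not called (edgeR adjusted p = 0.11). The CRKL start had a mean density of 157, and the start of CRK, its relative outside the segments, 15.8.

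PI4KA, a lipid kinase, was at 256 and 244 CPM before PMA and 83.8 and 74.7 after 72 h (-1.66). LZTR1, an adaptor that directs RAS proteins to degradation, fell by 1.34 on the log2 scale at 72 h. Both falls turned to values above 0 with loess offsets (0.44 and 0.61).

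Outside the segments, 19 of 27 listed signalling partners of BCR-ABL1 had a known start, and all 19 had a tested site there. At 6 h, 8 were lower, and at 72 h, 18 were lower (all gene starts 42.1% and 78.6%), with medians of -0.40 and -1.34. These medians were close to those of the starts in the segments. The exception at 72 h was STAT5A, which was at 1.17 and 1.86 CPM before PMA and 1.53 and 1.35 after 72 h with no peak in any library.

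Of 9 chromatin, transcription and RNA genes, 7 starts were lower at 6 h and 8 after 72 h (all gene starts 42.1% and 78.6%). HIC2, a zinc-finger repressor, went from 163 and 178 CPM to 100.1 and 104 after 6 h and 45.2 and 51.7 after 72 h (log2 fold changes -0.74 and -1.82, edgeR adjusted p = 6.5e-05 and 3.8e-10), and loess offsets gave -0.15 and 0.0043. HIRA, a chaperone of histone H3.3, shares its start site with MRPL40 and fell by 1.45 on the log2 scale at 72 h. DGCR8, the partner of DROSHA in microRNA processing, went from 246 and 278 CPM to 95.4 and 111 after 72 h (-1.34). Under loess offsets the HIRA and DGCR8 values at 72 h were 0.69 and 0.83.

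MED15 and CECR2 were the exceptions. MED15, a subunit of Mediator, was at 92.0 and 89.5 CPM before PMA, 112 and 127 after 6 h, and 55.2 and 58.4 after 72 h. It was higher at 6 h (log2 fold change 0.40 ± 0.13 SE, edgeR adjusted p = 0.015) and lower at 72 h (-0.68, adjusted p = 8.3e-05). The rise was not called with RLE size factors (0.25, adjusted p = 0.13) or without 0 h replicate 1, 0 h replicate 2 or 6 h replicate 2 (adjusted p = 0.065, 0.058 and 0.28), and at 72 h the value was -0.18 and not called with total counts (adjusted p = 0.19) and 1.09 with loess offsets. CECR2, a chromatin remodelling factor in the first 2 Mb, went from 4.35 and 4.35 CPM before PMA to 5.03 and 6.99 after 6 h and 10.7 and 11.2 after 72 h (1.33 ± 0.23 after 72 h, adjusted p = 4e-05).

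All 5 mitochondrial and apoptosis genes with a tested start were lower at 6 h and at 72 h (all gene starts 42.1% and 78.6%). SLC25A1, the mitochondrial citrate carrier, went from 274 and 293 CPM to 169 and 163 after 6 h and 81.5 and 85.8 after 72 h (-0.78 and -1.76). BID, a BCL2-family protein that promotes cell death, was at 29.8 and 37.5 CPM before PMA and 13.6 and 14.7 after 72 h (-1.25). TXNRD2, a mitochondrial thioredoxin reductase, fell by 0.58 and 1.2 on the log2 scale at 6 and 72 h. Loess offsets gave 0.35 for SLC25A1, 0.55 for TXNRD2 and -0.35 (not called, adjusted p = 0.053) for BID at 72 h.

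All 3 cell cycle and protein turnover genes with a known start were lower at 72 h, and 2 after 6 h. Over all gene starts, 78.6% and 42.1% were lower at these times. CDC45, part of the replicative helicase, went from 237 and 219 CPM before PMA to 79.5 and 81.1 after 72 h (-1.51). UBE2L3, a ubiquitin-conjugating enzyme, changed least, from 50.4 and 52.1 CPM to 37.0 and 33.3 (-0.54, edgeR adjusted p = 0.0021; -0.04 and not called with total counts). Loess offsets gave 0.56 for CDC45 and 0.80 for UBE2L3.

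The platelet gene GP1BB codes for a subunit of the von Willebrand factor receptor. Its start site went from 233 and 303 CPM before PMA to 154 and 165 after 6 h and 96.1 and 108 after 72 h (log2 fold changes -0.75 and -1.40, edgeR adjusted p = 7.3e-05 and 8.7e-09; 0.73 after 72 h with loess offsets). PRAME, a tumour antigen, went from 178 and 168 CPM to 112 and 104 and then 66.5 and 80.1 (-0.68 and -1.24; 0.67 after 72 h with loess offsets).

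On chromosome 9, FIBCD1 and PLPP7 were the other genes with a known start and a tested site. Both were lower at 72 h and neither was called at 6 h. The FIBCD1 start went from 53.9 and 52.7 CPM to 22.4 and 22.2 after 72 h (-1.26; 0.02 with loess offsets). The PLPP7 fall (-1.03, edgeR adjusted p = 0.0038) was lost without 0 h replicate 2 or 72 h replicate 1 (adjusted p = 0.14 and 0.066) and with total counts (adjusted p = 0.11).

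**Figure D4:**
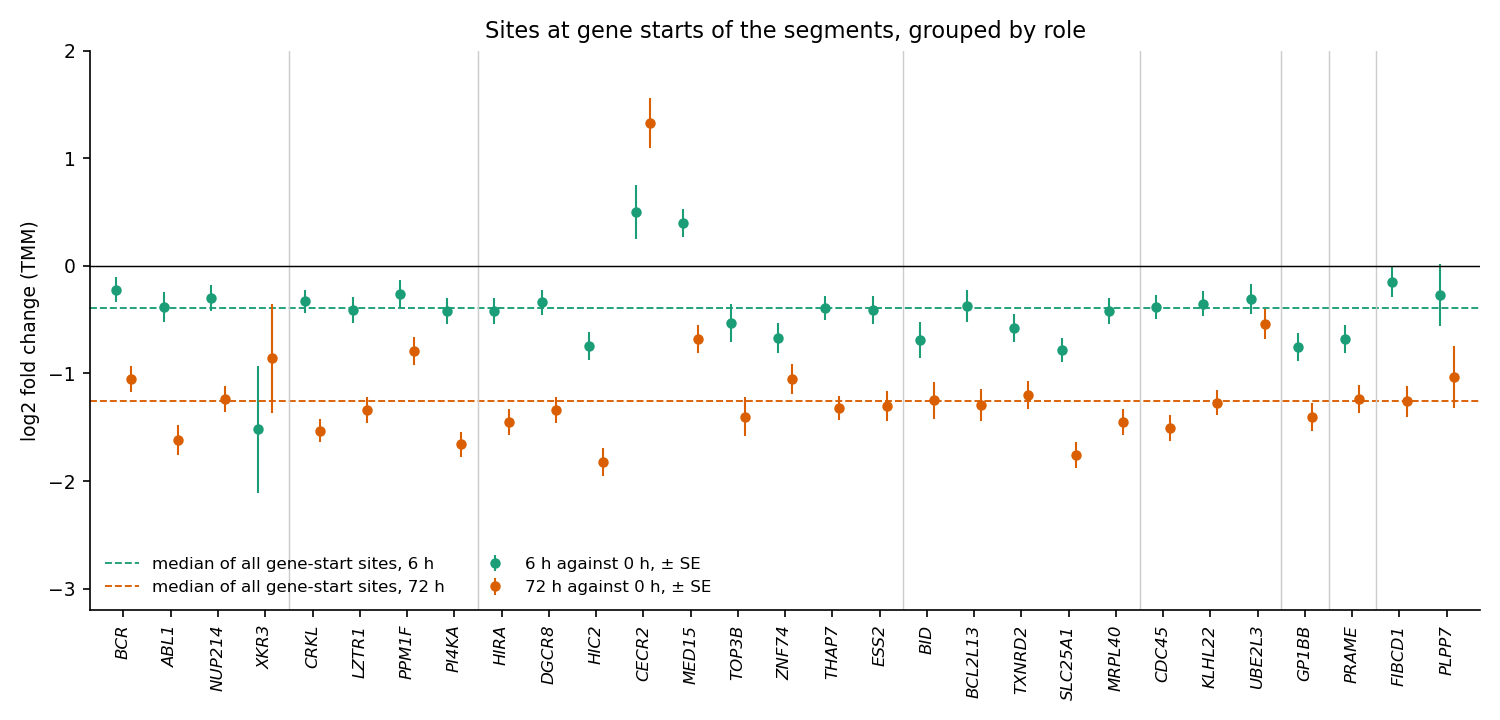
Log2 fold change (TMM, ± SE from the edgeR fit) at the known starts of 29 genes of the segments at 6 h and 72 h against 0 h, grouped by role between grey lines. Dashed lines are the medians of all 11946 gene-start sites, -0.39 and -1.26; most starts lie near them, and CECR2 lies above 0 at both times and MED15 after 6 h.

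Among all members, the largest rises at 6 h were within ARVCF, a catenin family member, within the overlapping genes PI4KA and SERPIND1, and within IL17RA. The ARVCF site (chr22:19994719-19995435) went from 3.70 and 3.59 CPM before PMA to 43.3 and 50.4 after 6 h and 19.1 and 22.6 after 72 h, a log2 change of 3.69 ± 0.19 (SE) at 6 h (edgeR adjusted p = 1.9e-11). The PI4KA site (chr22:20781513-20782246) went from 6.56 and 3.87 to 63.6 and 67.5 and then 40.1 and 40.7 (3.67 after 6 h). Both were highest at 6 h and stayed above 0 h at 72 h.

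At 72 h the largest rises were within SNAP29, a SNARE protein, GAB4, of the GAB adaptor family, and MED15. The SNAP29 site (chr22:20887350-20888021) went from 0.845 and 0.669 CPM to 4.35 and 6.20 after 6 h and 16.1 and 18.3 after 72 h, a log2 change of 4.52 ± 0.30 (SE) at 72 h (edgeR adjusted p = 1.9e-10). The MED15 site (chr22:20514850-20515534), within the gene, rose from 2.53 and 2.58 CPM to 31.1 and 37.9 (3.75).

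The largest falls at 6 h were at chr22:21093460-21094233, with LRRC74B as its nearest gene, within TANGO2 and within the overlapping GNAZ and RSPH14. The first went from 43.9 and 26.5 CPM before PMA to 5.29 and 5.89 after 6 h and 4.81 and 3.66 after 72 h (log2 changes -2.64 and -3.05, edgeR adjusted p = 1.7e-08 and 8.6e-10). The TANGO2 site (chr22:20025235-20025890) went from 68.6 and 43.4 to 10.2 and 12.6 and then 9.37 and 10.8 (-2.28 and -2.47). Another TANGO2 site (chr22:20035189-20035811), had the second largest fall at 72 h, from 11.0 and 9.42 CPM to 1.01 and 0.661 (-3.61), after the ABL1 site described above. None of the sites named in these 3 paragraphs lost its call or turned in any fit run.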

How the data were processed

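ATAC-seq reads of 6 K562 libraries were processed by the authors, whose processing notes name Trim Galore 0.4.3, BWA 0.7.17, SAMtools 1.9, deepTools 3.0.1, MACS2, bedtools 2.26, DESeq and build hg38. Roles, parameters, any shift for the transposase and the making of the site list are not given in the sources used here. The deposited table held raw read counts per site, and the authors' log2 fold changes, adjusted p-values and classes, of which only the classes are reported. Table starts count from 0, and 1 was added. The authors' peak lists, per library, hold a score, a fold enrichment ratio and the −log10 of p and q.

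Counts were scaled by TMM and fitted over all 6 libraries with 3 time groups in edgeR 4.0.16 (R 4.3.3), after its default filter (minimum count 10), with Benjamini-Hochberg adjustment over 177759 sites. The fit was tested on simulated counts. DESeq2 1.42.0 was an alternative. Density used total counts, and all sites of the table entered it. Sites and peaks overlapped by 1 base or more. Gene spans and starts came from RefSeq (GRCh38.p14); genes without a RefSeq promoter entry had no known start and were left out of the starts, and exons and introns were not analysed here. Replicates differed by more than sampling noise (chi-square per degree of freedom 4.95, 4.41 and 3.50).

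The members and gene lists were chosen with earlier results of these data known. The named sites were those of BCR and ABL1 and the site nearest each listed gene start within 1 kb (1000 bases). The 3 largest rises and falls at each time were added, among members past the threshold with 2 CPM or more and no overlap between libraries. Of the 38 BCR and 21 ABL1 sites with a mean of 2 CPM or more, only some are described by value.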

Additional observations from a re-analysis of the deposited data

How the results depend on the processing

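In the comparisons against 0 h, no alternative run turned the sign of the members' median relative to that of all tested sites. At 72 h against 6 h, loess offsets did turn it. There the members' median was 0.108 and that of all tested sites -0.040, against -0.221 and 0.026 with TMM. No alternative run took either segment's density ratio over 6 libraries below 1. The split of the members' calls by direction also turned. With total counts 259 members were higher (20.6%) and 181 lower (14.4%) at 6 h, against 26.0% and 12.6% of all tested sites. At 72 h 476 were higher (37.8%) and 332 lower (26.4%), against 48.0% and 19.5%. Their median there was 0.20, and that of all tested sites 0.79. With loess offsets 21 of 29 gene starts were higher at 72 h. With the stricter threshold (adjusted p 0.01, log2 change of 1 in either direction) 235 members were called at 6 h and 274 at 72 h against 6 h. Leaving out 1 library gave 335 to 459 calls at 6 h, 705 to 876 at 72 h and 338 to 650 at 72 h against 6 h, the lowest without 72 h replicate 2. The difference of the members' median from that of all tested sites was -0.13 at 6 h and -0.10 at 72 h with loess offsets, and -0.29 to -0.15 and -0.67 to -0.54 with 1 library left out. The chromosome 22 density ratio was 3.20 from summed counts, 2.56 at sites with a peak in all 6 libraries, 2.47 against flanks of the same length and 4.37 at gene ends with a peak in all 6 libraries. The chromosome 9 ratio was 2.77, 2.75, 2.67 and 2.36 in that order, and 3.74 at sites without a peak. With 1 library left out the ratios were 2.22 to 2.36 and 3.11 to 3.62. The alternative at gene ends was chosen after seeing the data.

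Of 2280 recomputed values of named sites, 2062 were counted as unchanged, 127 lost a call, 49 gained one and 42 turned. Only values called in the main fit or in the alternative were counted as turned. Values called in neither were counted as unchanged even where their sign differed. Loess offsets turned 40 of these, and the cause was not tested. For the sites reported here, log2 fold changes with loess offsets at 6 h and 72 h were: BCR 0.48 and 1.02, NUP214 0.47 and 0.98, CRKL 0.44 and 0.71, LZTR1 0.23 and 0.61, PI4KA 0.29 and 0.44, HIRA and MRPL40 0.31 and 0.69, DGCR8 0.40 and 0.83, THAP7 0.38 and 0.89, ESS2 0.10 and 0.36, CDC45 0.31 and 0.56, KLHL22 0.30 and 0.72. At 6 h alone: ABL1 0.06. At 72 h alone: PPM1F 0.78, HIC2 0.0043, MED15 1.09, ZNF74 0.71, TXNRD2 0.55, SLC25A1 0.35, UBE2L3 0.80, GP1BB 0.73, PRAME 0.67, FIBCD1 0.02, the BCR site at 23178384 0.01, the BCR site at 23182656 0.59, the BCR site at 23223523 1.34, the BCR site at 23242186 0.15, the BCR site at 23315491 0.53, the ABL1 site at 130860657 1.22, the ABL1 site at 130866294 0.56. Total counts gave 0.41 for the BCR site at 23315491 and 0.36 for the ABL1 site at 130860657 at 72 h.

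Replicate numbers were not shown to pair the libraries: the differences between replicates 1 and 2 correlated across sites at 0.13, 0.08 and 0.12 between time points. With the replicate block, 528, 886 and 647 members were called in the 3 comparisons, and 1 call of a named site was lost and 5 were gained. DESeq2 called 471, 808 and 490.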
